A study of Homo sapiens with 12 samples.

Results

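The comparison sets PANC-1 cells that received added miR-10b against cells that received a control oligo, and takes 6 of the 12 arrays of the series, chosen by their treatment label. PANC-1 is an established line from a human pancreatic ductal adenocarcinoma, and all cells were harvested 20 h after transfection. The groups are premir miR-10b, with a synthetic precursor of the microRNA, and premir control, with 3 arrays each. The 6 other arrays, 3 with antimir-10b (an inhibitor of the microRNA) and 3 with antimir control, form the antimir arm and serve as a further comparison for the treated arrays. All groups were transfected, so no array shows untransfected cells. The design text calls the replicates biological, the line is a single one, and the sources used here give neither the oligo doses nor the miR-10b levels reached. Values are normalized array signals on the log2 scale, so a difference of 1 is a 2-fold difference. The gene's brightest probe was used, and levels of different genes are not compared.

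MicroRNAs guide Argonaute proteins to messenger RNAs, mainly through pairing between their seed, the bases from position 2 to 8, and sites in the untranslated end of the message, and lower the translation and the stability of those messages. miR-10b lies within the HOXD gene cluster and shares its family with miR-10a. It is best known from work on invasive breast cancer cells, with the homeobox gene HOXD10 as a described target, and in pancreatic cancer cells HTATIP2 (TIP30) has been described as a target.

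The family's sequences in RefSeq (GRCh38.p14) are shown because the seed is what a microRNA pairs with. The MIR10B hairpin lies at chr2:176150303-176150412 on the plus strand, with its hsa-miR-10b-3p arm (chr2:176150368-176150389) in capitals, and hsa-miR-10a-5p lies at chr17:48579904-48579926 on the minus strand. In both mature sequences the capitals mark the seed, and the seed of hsa-miR-10b-3p differs from that of hsa-miR-10a-5p. The labels do not say which arm of the hairpin the premir oligo adds, so neither seed is given as that of the added microRNA. hsa-miR-10b-5p belongs to the same family as hsa-miR-10a-5p.
MIR10B hairpin: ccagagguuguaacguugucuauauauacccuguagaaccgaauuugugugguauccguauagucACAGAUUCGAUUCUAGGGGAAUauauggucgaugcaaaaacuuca
hsa-miR-10b-3p: aCAGAUUCgauucuaggggaau
hsa-miR-10a-5p: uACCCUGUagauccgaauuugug

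Premir miR-10b 2 stood apart from the rest of the series. It detected 29.5% of probes and correlated with the other arrays at 0.814 to 0.826, whereas the other 11 arrays detected 39.2% to 41.3% of probes and correlated with each other at 0.981 or more. Premir miR-10b 1 and 3 therefore carry the tests, and the value of array 2 stands beside them. Of 7 ductal epithelium markers, 6 were detected on all 11 of those arrays and CDH1 on 10. Of the 23 markers with a probe for fibroblasts, leukocytes, endothelium, acinar and islet cells, 14 were detected on none of the 11 arrays, 7 on some, and COL1A1 and CD14 on all. In bulk RNA, fewer cells of a type and less RNA per cell cannot be told apart.

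After added miR-10b, more features were called lower than higher. Of 17369 features, limma called 124 at an adjusted p under 0.05 between premir miR-10b 1 and 3 and premir control, which is 0.714% of those tested. There were 84 features lower (0.484%) and 40 higher (0.230%). The lower features had a median log2 change of -0.99, with a range from -0.61 to -2.15, and 42 of them were at least 2-fold lower. The higher features had a median change of 0.92, from 0.57 to 2.15, and 15 were at least 2-fold higher. Across all features the median change was 0.00 and the median standard error 0.16. All 84 lower features lay below every premir control array on both treated arrays, as did 9.98% of all features, and all 40 higher ones lay above every control, as did 9.81%. With all 12 arrays, 22 features were called (0.127%), 14 lower (0.0806%) and 8 higher (0.0461%). Leaving out 1 of the 11 arrays gave 75 calls without premir control 3, 71 without premir miR-10b 3 and 367 without premir miR-10b 1. Of the 106 called genes with a symbol, 58 lost the call without at least 1 array. With all 12 arrays, 21 of the 106 kept the call. The call was also lost for 68 of them with the values that the authors had scaled, where 42 features were called.

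**Figure D1:**
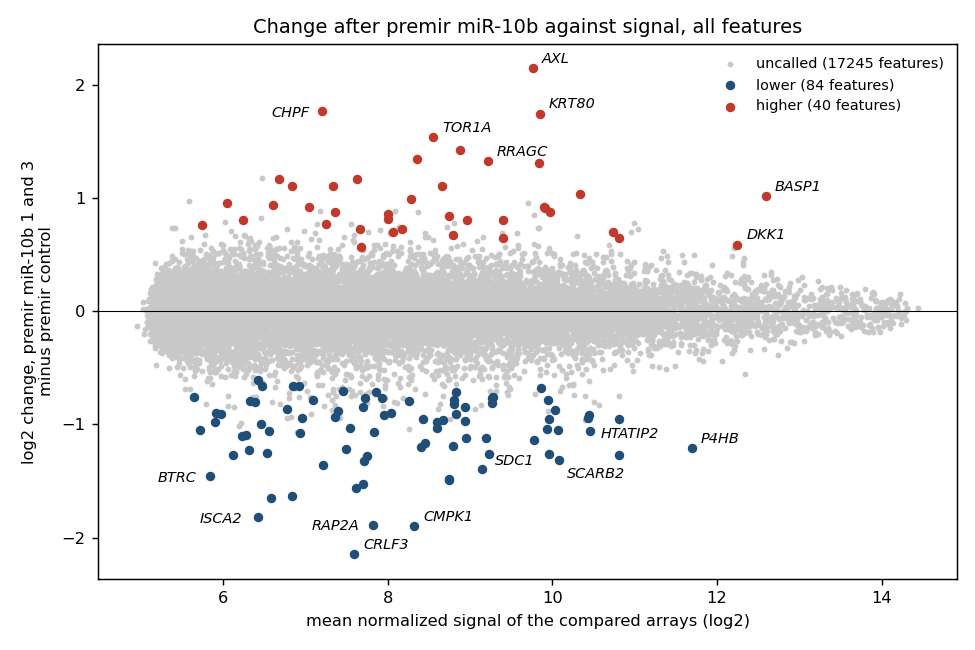
Log2 change between premir miR-10b 1 and 3 and premir control (vertical axis) against the mean normalized log2 signal of those groups (horizontal axis), 1 point per feature. The 84 lower and 40 higher features are coloured and spread over low, middle and high signals, and the falls reach down to -2.15 and the rises up to 2.15.

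Of the 15 measured genes described as targets of miR-10b or miR-10a, 3 fell, beside 0.484% of all features. That list was chosen with results of these arrays known, so its count is a description and no evidence about targets as a group. HTATIP2, a tumor suppressor also known as TIP30, had 9.88 and 9.98 on premir miR-10b 1 and 3 and 9.60 on array 2, against 10.91, 11.06 and 11.01 on premir control. All 3 treated arrays lay below every control array, and the mean of arrays 1 and 3 was 2.09-fold lower (log2 change -1.06 ± 0.11 SE, adjusted p = 4.14e-04). SDC1, a heparan sulfate proteoglycan of the epithelial cell surface, had 9.13 and 9.53 with 10.18 on array 2, against 10.64, 10.41 and 10.71 on premir control. All 3 treated arrays were below the controls, and the change was -1.26 ± 0.15 (SE), or 2.39-fold lower, with an adjusted p of 8.46e-04. SDC1 has another probe near the background, detected on 4 arrays, whose change was 0.15 (adjusted p = 0.909). BTRC, the substrate receptor through which an SCF ubiquitin ligase recognizes beta-catenin, was not detected on any treated array. Its signals were 5.18 and 5.04 with 4.81 on array 2, against 6.34, 6.65 and 6.73 on premir control, so that BTRC was at least 2.36-fold lower (adjusted p = 0.00104). Against the antimir arm all 3 genes were also called lower, with log2 differences of -1.02 for HTATIP2, -1.24 for BTRC and -1.75 for SDC1.

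Among signalling genes the deepest fall of the comparison was in CRLF3, which encodes a protein named for its likeness to cytokine receptors. CRLF3 had 7.18 and 5.87 on premir miR-10b 1 and 3 and 5.50 on array 2, where it was not detected, against 8.89, 8.51 and 8.61 on premir control. The treated arrays differed among themselves but did not overlap the controls, and the change was -2.15 ± 0.28 (SE), or 4.43-fold lower (adjusted p = 0.00144). Its other probe changed by -1.14 (adjusted p = 0.0023). RAP2A, a small GTPase of the RAS family, had 7.38 and 6.38 with an undetected 5.17 on array 2, against 8.71, 8.89 and 8.71 on premir control. It was 3.70-fold lower (adjusted p = 8.42e-04), while its relative RAP2C, with 8.69 and 8.11 against 9.12, 9.10 and 9.32, was uncalled at an adjusted p of 0.228. C1QTNF6, a secreted relative of complement C1q, had 5.45 and 5.54 against 6.96, 6.92 and 6.40 on premir control, with 7.89 on array 2. Array 2 thus lay on the other side of the controls, the other probes of C1QTNF6 changed by -0.13 and -0.37, and its change of -1.27 was not called without premir miR-10b 3 (-1.31, adjusted p = 0.0507). RAB15, a small GTPase of endosomal recycling, had 5.32 and an undetected 5.07 with an undetected 4.87 on array 2, against 6.63, 6.01 and 6.10 on premir control. Its change of -1.05 (adjusted p = 0.00901) thus rests on 1 detected treated array and was not called without premir miR-10b 3 (-0.93, adjusted p = 0.114).

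CDK6, SKA1 and E2F7, with roles in the cell cycle, were among the genes that fell. CDK6, a kinase of the G1 phase that phosphorylates the retinoblastoma protein, had 8.57 and 8.69 with 8.63 on array 2, against 9.62, 9.91 and 9.73 on premir control. The 3 treated arrays lay close together, the change was -1.12 ± 0.15 (SE), and CDK6 was 2.18-fold lower (adjusted p = 0.00166). SKA1, a subunit of the complex that ties kinetochores to microtubules, had 7.30 and 6.92 with 6.86 on array 2, against 8.40, 8.46 and 8.33 on premir control. It was 2.43-fold lower (adjusted p = 0.00104). E2F7, a repressor among the E2F factors, had 8.31 and 7.91 with 8.12 on array 2, against 9.05, 9.16 and 9.05 on premir control. Premir miR-10b 1 lay inside the range of the antimir arm for E2F7, 8.26 to 8.89, and premir miR-10b 3 and array 2 lay below it. The E2F7 change of -0.98 (adjusted p = 0.0118) was not called without premir miR-10b 3 (-0.78). The call was also lost without premir control 2 (-0.94, adjusted p = 0.063) or premir control 3 (adjusted p = 0.0521). MCMBP, which binds the replicative MCM helicase, was 2.35-fold lower and the mitotic kinase gene NEK6 1.93-fold lower, but array 2 lay above the controls for both, at 8.02 for MCMBP and 9.20 for NEK6. Smaller falls were called in FBXO43 (-0.80), an inhibitor of the anaphase-promoting complex, MYBL1 (-0.77), a transcription factor of the MYB family, CLASP2 (-0.94), which binds microtubule ends, and FAM83D (-0.68), a spindle protein. Each of these 4 lost the call without at least 1 premir control array and without premir miR-10b 3, where FBXO43 changed by -0.68, MYBL1 by -0.68, CLASP2 by -0.84 and FAM83D by -0.47. FAM83D lost the call in 20 of 25 alternatives and MYBL1 in 17, among them the fits without 5 and 4 of the antimir-arm arrays, and array 2 had 9.06 for MYBL1, above its premir controls at 8.17, 8.03 and 8.12.

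EXOC2, EXOC6, GOLGA3, SNX4 and SCARB2, with roles in secretion, endosomes or lysosomes, were also called lower. EXOC2, a subunit of the exocyst that tethers vesicles to the plasma membrane, had 6.72 and 6.95 with an undetected 5.36 on array 2, against 8.41, 8.39 and 8.37 on premir control. The controls lay close together, and EXOC2 was 2.95-fold lower (adjusted p = 1.35e-04), with -1.18 at its other probe (adjusted p = 8.67e-04). EXOC6, a further exocyst subunit, had 7.10 and 6.81 with 8.06 on array 2, against 7.98, 7.81 and 7.74 on premir control. Array 2 lay above the controls, and the change of -0.88 (adjusted p = 0.00886) was not called without premir miR-10b 3 (-0.74, adjusted p = 0.125). GOLGA3, a golgin of the Golgi membrane, had 9.71 and 9.37 with 9.25 on array 2, against 10.67, 10.67 and 10.44 on premir control. It was 2.07-fold lower (adjusted p = 0.00327), and the call was lost without premir miR-10b 3 (-0.88, adjusted p = 0.0593). SNX4, a sorting nexin of endosomal recycling, had 7.42 and 6.68 with 7.77 on array 2, against 8.57, 8.26 and 8.28 on premir control. For SNX4 the premir controls lay above all 6 antimir-arm arrays (7.43 to 8.03), and array 2 lay within that range. The gene was not called against the antimir arm (difference -0.74, adjusted p = 0.128). Its change was -1.32 ± 0.21 (SE), with an adjusted p of 0.00809, and without premir miR-10b 3 the change was -0.95 (adjusted p = 0.109). SCARB2, the lysosomal membrane protein that carries glucocerebrosidase, had 9.58 and 9.27 with 10.03 on array 2, against 10.69, 10.88 and 10.65 on premir control. All 3 treated arrays were below the controls, and SCARB2 was 2.49-fold lower (adjusted p = 3.42e-04). TRAPPC2 (-0.77) and TRAPPC13 (-0.61), subunits of TRAPP vesicle tethers, and NECAP1 (-0.81), an adaptor of clathrin coats, were also called lower. All 3 lost the call without premir control 1, premir control 3 or premir miR-10b 3. In the last case the changes were -0.62 for TRAPPC2, -0.50 for TRAPPC13 and -0.71 for NECAP1. TRAPPC2 and TRAPPC13 also lost the call without premir control 2. TRAPPC13 lost it in 16 of 25 alternatives, among them fits without some of the antimir-arm arrays.

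SUMF1, P4HB, EDEM1, ST6GALNAC6, LRRC8B and TMEM30A were further called genes. SUMF1, which activates sulfatases, had 5.87 and 5.65 with 6.31 on array 2, against 7.29, 7.48 and 7.45 on premir control. It was 3.13-fold lower (adjusted p = 1.47e-04) at signals close to the background. P4HB, the abundant protein disulfide isomerase, had 11.06 and 11.12 with 11.84 on array 2, against 12.21, 12.44 and 12.24 on premir control. It was 2.31-fold lower (adjusted p = 5.16e-04). EDEM1, which hands misfolded glycoproteins to degradation, had 7.77 and 7.86 with an undetected 4.90 on array 2, against 8.97, 9.14 and 8.91 on premir control, and was 2.29-fold lower (adjusted p = 4.59e-04). ST6GALNAC6, a sialyltransferase of gangliosides, had 6.94 and 6.93 with 6.59 on array 2, against 8.46, 8.49 and 8.47 on premir control. Both groups were tight, and the gene was 2.89-fold lower (adjusted p = 5.10e-04). LRRC8B, a subunit of the volume-regulated anion channel, had 8.27 and 7.73 with 8.98 on array 2, against 9.44, 9.49 and 9.54 on premir control. It was 2.81-fold lower (adjusted p = 4.16e-04) at its main probe, and its other probe, near the background, changed by -0.10 (adjusted p = 0.941). TMEM30A, a partner of phospholipid flippases, was 2.12-fold lower on arrays 1 and 3, at 6.38 and 6.42 against 7.44, 7.43 and 7.57, and had 8.36 on array 2.

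CMPK1, ISCA2 and GCLM, with roles in metabolism, were called lower. CMPK1, which phosphorylates pyrimidine nucleoside monophosphates, had 7.78 and 6.96 with 7.16 on array 2, against 9.36, 9.15 and 9.28 on premir control. It was 3.73-fold lower (log2 change -1.90 ± 0.27 SE, adjusted p = 0.00269), with -1.82 at its other probe (adjusted p = 0.00475). ISCA2, an assembly factor of mitochondrial iron-sulfur clusters, had 5.71 and 5.31 with 7.89 on array 2, against 7.48, 7.16 and 7.35 on premir control. It was 3.53-fold lower on arrays 1 and 3 (adjusted p = 1.35e-04) and was detected on 1 of these 2 arrays. GCLM, the modifier subunit of the first enzyme of glutathione synthesis, had 9.58 and 9.55 with 8.44 on array 2, against 10.50, 10.44 and 10.10 on premir control. It was 1.72-fold lower (adjusted p = 0.0142) with -1.04 at its other probe (adjusted p = 0.018), and lost the call without premir miR-10b 3 (-0.76, adjusted p = 0.112), premir control 1 (-0.70, adjusted p = 0.0653) or premir control 2 (-0.73, adjusted p = 0.0733). The cationic amino acid transporter gene SLC7A1 (-0.96), PCBD1 (-0.97), which recycles the pterin cofactor of aromatic amino acid hydroxylases, and PANK2 (-0.85), a mitochondrial pantothenate kinase, were called lower too, and array 2 lay above the controls for SLC7A1 (9.85 against 9.07 to 9.22) and PANK2 (9.96 against 9.16 to 9.77). The PANK2 call was lost without premir miR-10b 3 (-0.83, adjusted p = 0.221), premir miR-10b 1 (-0.87, adjusted p = 0.0616) or either of premir control 1 (-0.65) and premir control 3 (-0.95), and without 5 of the 6 antimir-arm arrays.

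Another gene that fell was H3-3B, which encodes the histone variant H3.3. H3-3B had 8.41 and 7.62 with 9.33 on array 2, against 9.58, 9.72 and 9.18 on premir control, a 2.78-fold lower mean (adjusted p = 0.00253). The probe named H3-5, a near-identical retrocopy of H3-3B, had 10.18 and 10.16 with 8.90 on array 2, against 11.47, 11.56 and 11.30 on premir control, and was 2.42-fold lower (adjusted p = 3.42e-04). The arrays may not separate these 2 genes, so neither fall can be given to 1 of them with certainty. H3-3A, which encodes the same protein as H3-3B, had 12.68 and 12.68 against 12.74, 12.78 and 13.03 and was uncalled (-0.17, adjusted p = 0.855). ZMYND11, a reader of methylated H3.3, had 8.74 and 8.15 with 9.33 on array 2, against 9.94, 9.87 and 9.71 on premir control. It was 2.63-fold lower at its main probe (adjusted p = 6.90e-04) and changed by -0.07 at a probe near the background (adjusted p = 0.976). KHNYN, a nuclease that works with the antiviral protein ZAP, had 6.64 and 6.44 with an undetected 5.42 on array 2, against 7.73, 7.93 and 8.03 on premir control, a 2.56-fold lower mean (adjusted p = 2.69e-04). RPL13A, a ribosomal protein gene with many pseudogene copies that the probe may not separate, was 1.92-fold lower (adjusted p = 0.00265). TMEM183A (-1.04) and its copy TMEM183BP (-1.14) fell together, and the arrays may not separate this pair either.

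**Figure D2:**
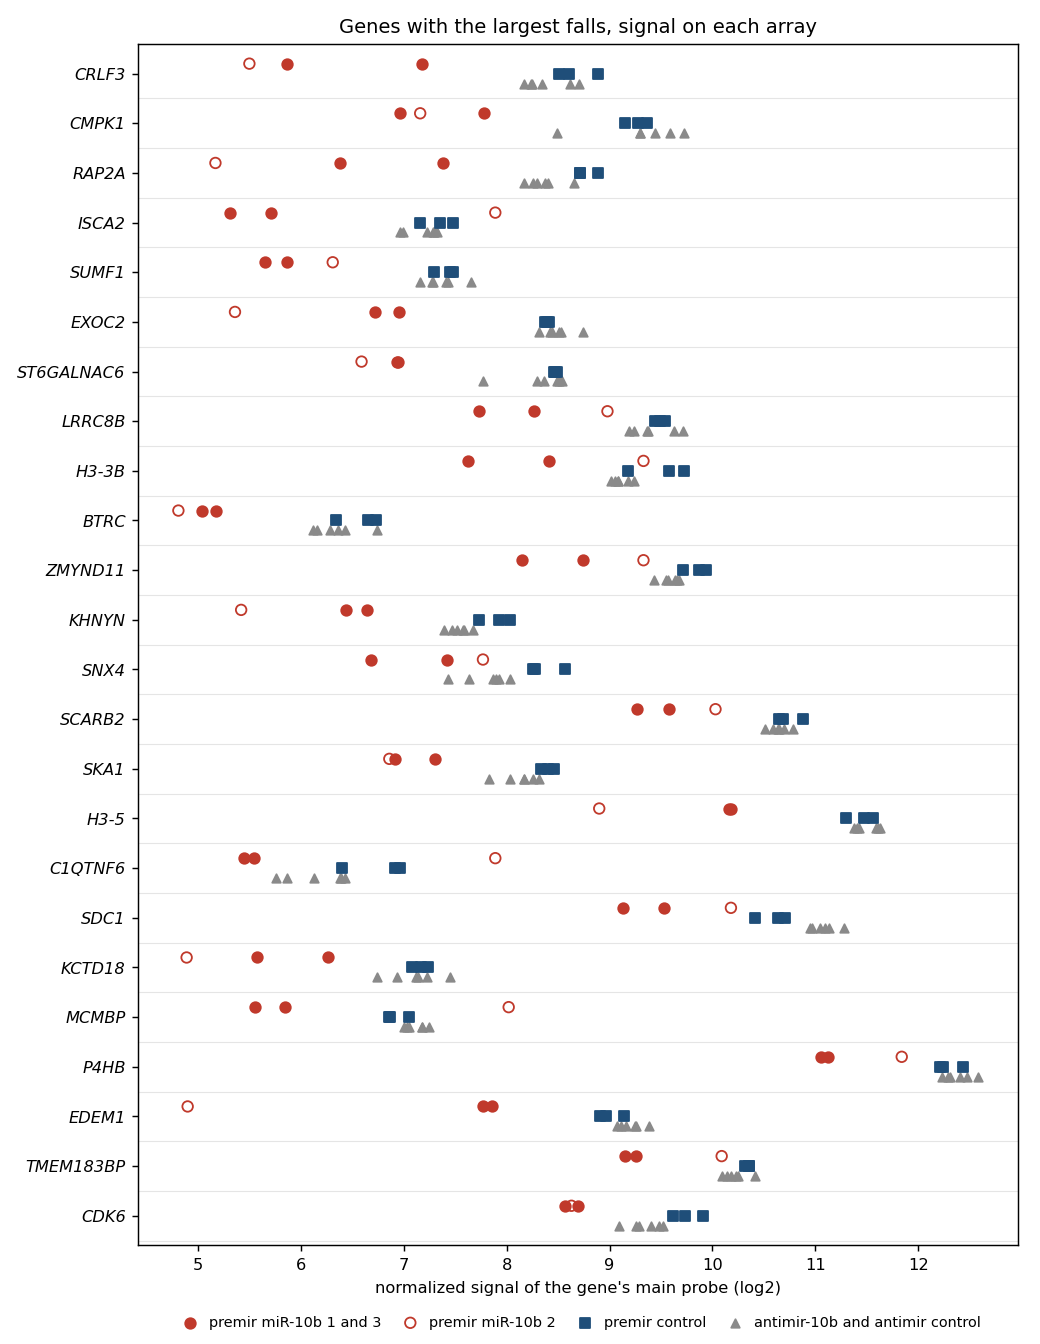
Normalized log2 signal (horizontal axis) on each array for the 24 named genes with the largest falls: premir miR-10b 1 and 3 (filled red circles), premir miR-10b 2 (open circles), premir control (blue squares) and the 6 antimir-arm arrays (grey triangles), 1 gene a row. The filled circles lie left of every square in each row, while the open circle lies right of the squares for some genes, such as ISCA2 (7.89) and MCMBP (8.02).

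AXL rose most. This receptor tyrosine kinase for the ligand GAS6 had 10.74 and 10.95 on premir miR-10b 1 and 3 and 12.76 on array 2, against 8.57, 9.16 and 8.35 on premir control. It was 4.43-fold higher (log2 change 2.15 ± 0.19 SE, adjusted p = 1.43e-04), with 2.11 at its other probe (adjusted p = 1.41e-04). The antimir arm had 10.97 to 11.17, so the treated arrays lay just below that arm and the premir controls far below both. KRT80, an epithelial keratin, had 10.74 and 10.70 with 10.48 on array 2, against 8.88, 9.05 and 8.99 on premir control and 9.97 to 10.56 in the antimir arm. It was 3.37-fold higher (adjusted p = 1.47e-04), and its other probe changed by 1.57 (adjusted p = 0.0355). CHPF, a factor for the polymerization of chondroitin chains, had 7.69 and 8.48 with 7.77 on array 2, against 6.34, 6.36 and 6.24 on premir control and 8.01 to 8.68 in the antimir arm. It was 3.42-fold higher (adjusted p = 7.72e-04). Of genes for secreted proteins, 3 calls are named here, at 1.90-fold for the chemokine CXCL1, 1.95-fold for the glycoprotein hormone STC1 and 1.51-fold for the Wnt inhibitor DKK1. CXCL1 had 7.59 and 7.41 with 8.10 on array 2, against 6.58, 6.67 and 6.49, and its call was lost without premir control 3 (0.88, adjusted p = 0.0663). DKK1 had 12.55 and 12.54 against 11.94, 11.90 and 12.01, with 10.19 on array 2, and lost the call without either treated array (adjusted p = 0.065 without array 1 and 0.188 without array 3) and without each premir control array (adjusted p from 0.0967 to 0.148), and without 4 of the antimir-arm arrays. STC1 lost it without premir miR-10b 1 (0.88, adjusted p = 0.0591), premir miR-10b 3 (1.04, adjusted p = 0.0746), premir control 1 (0.92) or premir control 2 (0.94).

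SEC24C, SFT2D2, TOR1A and RRAGC also rose. SEC24C, a cargo-binding subunit of the COPII coat, had 10.68 and 11.01, with array 2 close to the higher of them, against 9.73, 9.84 and 9.85 on premir control, and was 2.05-fold higher (adjusted p = 0.00233). SFT2D2, a small membrane protein of Golgi traffic, had 7.34 and 7.19 with 7.03 on array 2, against 6.03, 5.96 and 6.28 on premir control. It was 2.26-fold higher (adjusted p = 0.00104), and a probe near the background changed by 0.05 (adjusted p = 0.984). TOR1A, a chaperone-like ATPase of the endoplasmic reticulum and nuclear envelope, had 9.25 and 9.39 with 8.56 on array 2, against 7.72, 7.90 and 7.73 on premir control. It was 2.91-fold higher (adjusted p = 1.35e-04). RRAGC, a Rag GTPase that brings the kinase complex mTORC1 to lysosomes, had 9.97 and 9.79 with 11.16 on array 2, against 8.45, 8.69 and 8.50 on premir control, a 2.52-fold higher mean (adjusted p = 3.42e-04). The treated and control arrays did not overlap for any of these 4 genes, with or without array 2.

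Of the other genes with large rises, CTDSP2, a phosphatase of the tail of RNA polymerase II, had 9.33 and 9.86 with 9.85 on array 2, against 8.01, 8.43 and 8.05 on premir control. It was 2.69-fold higher (adjusted p = 0.00146). WBP1L, a membrane protein that binds WW domains, had 8.69 and 9.37 with an undetected 4.99 on array 2, against 7.68, 7.91 and 7.47 on premir control. It was 2.54-fold higher without array 2 (adjusted p = 0.0112), had no change with 12 arrays (0.00), and lost the call without premir miR-10b 3 (1.00, adjusted p = 0.159) or premir control 3 (1.24, adjusted p = 0.0671). RDH11, a retinol dehydrogenase, had 10.65 and 10.34 with 12.09 on array 2, against 9.54, 8.99 and 9.02 on premir control. It was 2.48-fold higher (adjusted p = 0.00166), with 1.04 at its other probe (adjusted p = 0.0138). NRBP1, a pseudokinase, had 7.96 and 8.46 with 7.23 on array 2, against 7.04, 7.18 and 6.90 on premir control. Its 2.25-fold rise (adjusted p = 0.0228) was not called without premir miR-10b 3 (0.92, adjusted p = 0.26) or without premir control 1 (1.17), 2 (1.24) or 3 (1.10). SSH1, a phosphatase that activates the actin-severing protein cofilin, had 7.14 and 7.63 with an undetected 4.87 on array 2, against 6.13, 6.43 and 6.27 on premir control. It was 2.16-fold higher (adjusted p = 0.00722), and without premir miR-10b 3 the change was 0.87 (adjusted p = 0.109). POLR3E, a subunit of RNA polymerase III, had 8.42 and 8.44 with 8.68 on array 2, against 7.55, 7.61 and 7.55 on premir control, a 1.81-fold higher mean (adjusted p = 0.00469). Further calls were the ubiquitin ligase gene RNF167 (1.11), BASP1 (1.02), a membrane-bound signalling protein, and the elongation factor gene ELL2 (0.99). EIF2S3 (0.91), a subunit of the initiation factor eIF2, and UHRF1 (0.65), which keeps up DNA methylation, were also called. Array 2 lay below the controls for ELL2 (6.49 against 7.76 to 7.84) and UHRF1 (9.62 against 10.36 to 10.66). It lay above them for RNF167 (10.64), BASP1 (12.84) and EIF2S3 (9.98). BASP1 was not called without premir control 3 (0.96, adjusted p = 0.0521), and UHRF1 was called neither without premir miR-10b 1 (0.64, adjusted p = 0.0633), premir miR-10b 3 (0.67, adjusted p = 0.159), premir control 1 (0.63) or premir control 3 (0.59), nor without 3 of the antimir-arm arrays.

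**Figure D3:**
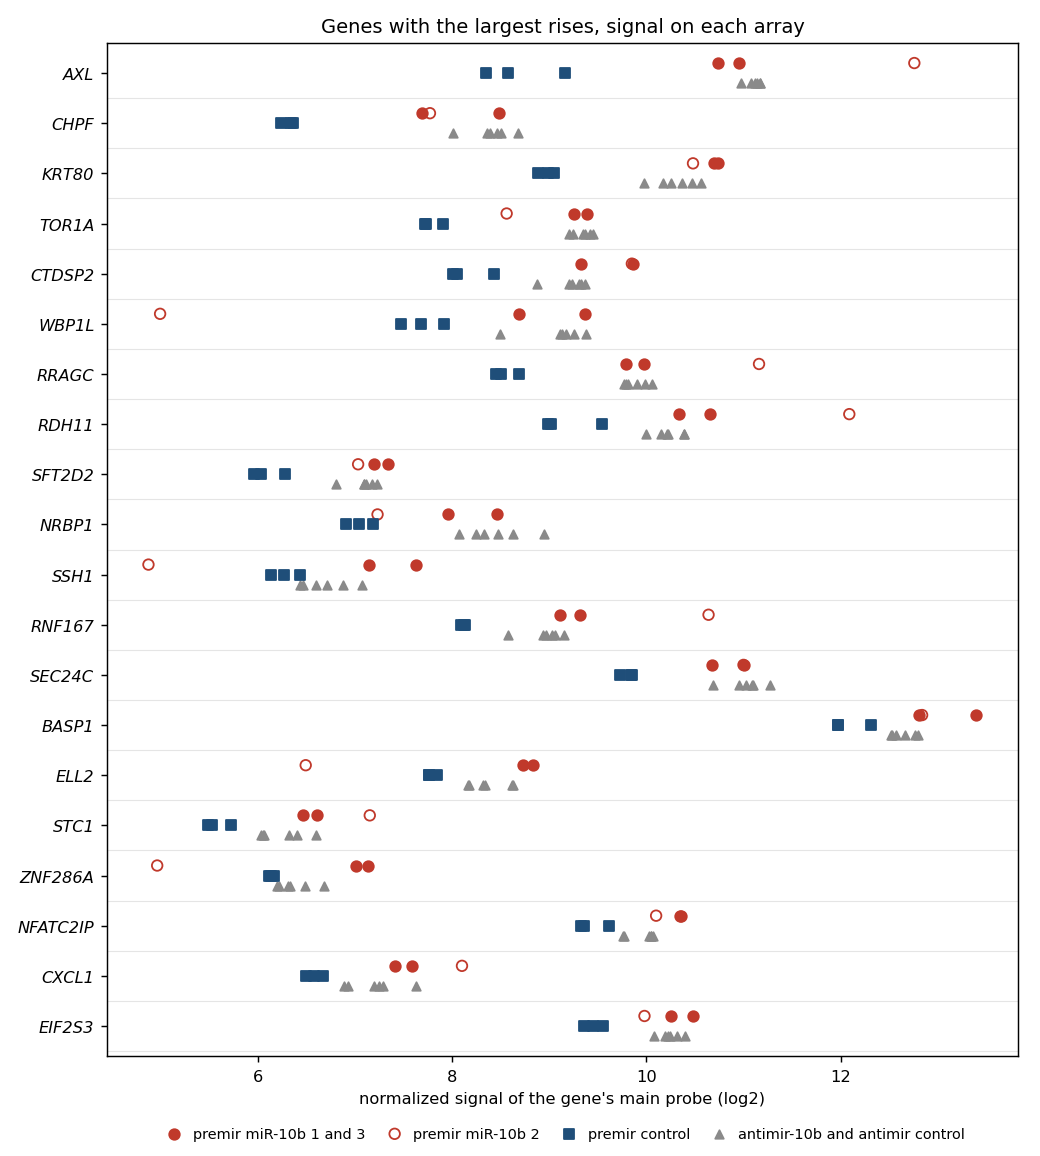
Normalized log2 signal (horizontal axis) on each array for the 20 named genes with the largest rises, with the same symbols as in the plot of the falling genes: filled red circles for premir miR-10b 1 and 3, open circles for premir miR-10b 2, blue squares for premir control and grey triangles for the antimir arm. For AXL, TOR1A and RRAGC the filled circles lie at or close to the triangles, and the squares lie to the left of both.

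The antimir arm gave the falling and rising genes different positions. For 81 of the 84 lower features, premir miR-10b 1 and 3 lay below all 6 antimir-arm arrays, against 5.97% of all features. The lower features were called for low signals on these treated arrays, so this position partly follows from the calling. The exceptions among the 84 were E2F7, ENTPD6 and KCTD20, for which at least 1 of these treated arrays was not below all 6. All 3 premir controls lay above all 6 antimir-arm arrays for 13 of the lower features and below all 6 for 1, SDC1. For the other 70 the controls lay neither all above nor all below that arm, so some were partly outside its range. Over all features, the premir controls were above that arm in 3.46%. The median difference between treated arrays and antimir arm was -0.94, close to the change against premir control of -0.99. Of the 84, 60 were also called against the antimir arm, a comparison that shares the treated arrays and called 105 features in all (0.605%), 94 of them lower (0.541%) and 11 higher (0.0633%).

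For most of the higher features, the premir controls lay below the antimir arm. These features were called for premir controls that were low beside the treated arrays, so this position partly follows from the calling. In 36 of 40 all 3 premir control arrays lay below all 6 antimir-arm arrays, against 4.34% of all features. The 4 others, which include DKK1 and SSH1, had controls that reached into the antimir range. Premir miR-10b 1 and 3 lay above all 6 antimir-arm arrays for 14 higher features and below all for 3 (AXL, UHRF1 and TOP1MT). For the other 23 the treated arrays lay neither both above nor both below that arm, so some were partly outside its range. Over all features, 89.7% were neither below nor above that arm and 4.38% were above it. The median difference of the higher features from the antimir arm was 0.25, against a change of 0.92 from premir control, and 1 of the 40, the zinc finger gene ZNF286A, was also called against the antimir arm. ZNF286A had 7.01 and 7.13 against 6.11, 6.13 and 6.16 on premir control and 6.19 to 6.68 in the antimir arm, but 4.96, not detected, on array 2. Its call against premir control was lost without premir miR-10b 3 (0.88, adjusted p = 0.0746). By median signal, the lower features had 7.43 on premir miR-10b 1 and 3, 8.48 on premir control and 8.34 in the antimir arm, and the higher ones had 9.08 on premir miR-10b 1 and 3, 7.80 on premir control and 8.87 in the antimir arm. The count of calls against the antimir arm was 178 without premir miR-10b 3 and 69 without antimir control 3. The part of the premir control arrays in these rises was not tested.

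**Figure D4:**
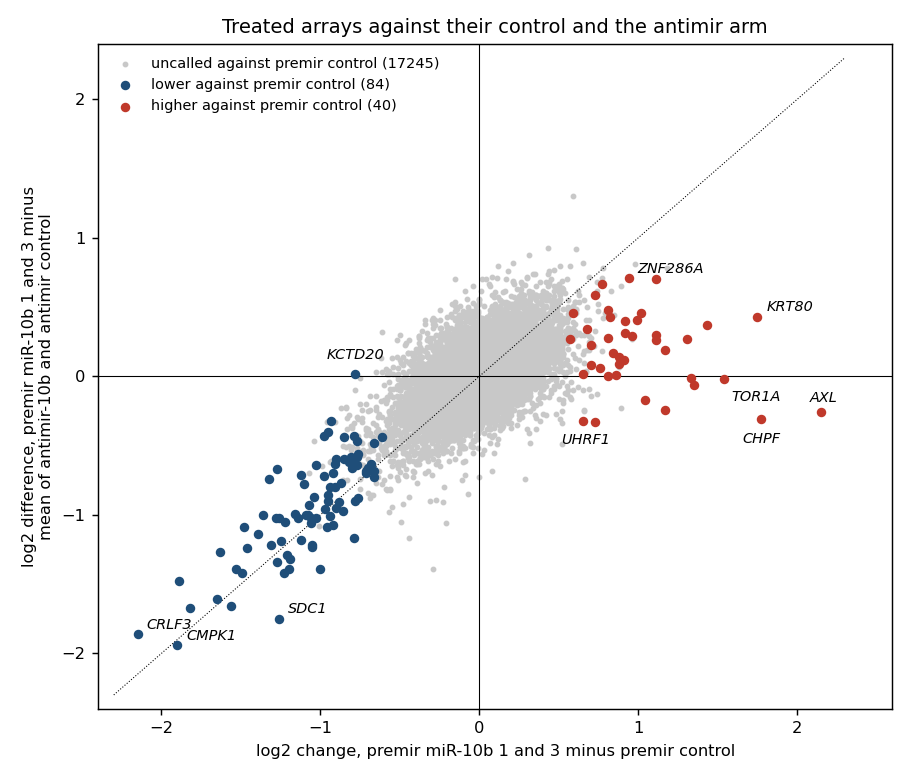
Log2 change of premir miR-10b 1 and 3 from premir control (horizontal axis) and log2 difference of the same arrays from the antimir arm (vertical axis), 1 point per feature, with equal values on the dotted line. Both axes share the treated arrays. Of the 84 lower features, all but KCTD20 (0.02) lie below 0 on the vertical axis. The 40 higher features lie mostly under the dotted line, between 0.71 for ZNF286A and -0.33 for TOP1MT on the vertical axis.

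The arrays of the treated group differed among themselves. The median absolute difference between premir miR-10b 1 and 3 was 0.24 over all features, against 0.15 to 0.17 between pairs of premir control arrays. Array 3 was lower than array 1 for 62 of the 84 lower features, against 48.0% of all features, as with CRLF3 and RAP2A. For the higher features array 3 was lower in 22 of 40. Array 2 lay below all controls for 60 of the 84 lower features (39.8% of all features) and above all controls for 21 (49.3% of all features), and did not detect 25 of them. It lay above all controls for 30 of the 40 higher features and below for 10. For 17 of the lower genes the array has 19 other kept probes, of which 17 changed in the same direction, 8 of them by at least 0.5 and 4 of them past the threshold. For 8 of the higher genes it has 13, all in the same direction, 5 by at least 0.5 and 4 past the threshold.

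The 30 lists of related genes held 498 measured genes, of which 17 were called lower and 11 higher, beside 0.484% and 0.230% of all features. The lists were built with earlier results known, so these counts follow from that choice and nothing is read from them. The lists without a call were matrix proteases, microRNA processing, p53 targets, interferon-induced genes and the BCL2 family. Among the described targets of miR-10b or miR-10a, 15 of 23 were measured, 3 were lower (0.484% of all features), 12 were uncalled and the median change was -0.16, against 0.00 over all features. Golgins and exocyst genes had 3 of 18 lower (EXOC2, EXOC6 and GOLGA3) and a median of 0.00, and the COPII, COPI and SFT2 genes of vesicle coats had 2 of 25 higher (SEC24C and SFT2D2) and a median of -0.08. Kinetochore and spindle genes had 1 of 28 lower, SKA1, and 24 of 28 negative changes, beside 8575 of all 17369 features. The median of this list was -0.20 against premir control and -0.02 against the antimir arm. Of the 5 anion channel subunits LRRC8B was lower. LRRC8A, with 5.71 and 5.93 against 6.34, 6.40 and 6.41, had a change of -0.56 (adjusted p = 0.0755). Its difference of -0.81 from the antimir arm was called (adjusted p = 0.00276). On array 2 LRRC8A had 6.47, above the premir controls and within the antimir-arm range of 6.40 to 6.73. Receptor tyrosine kinases had 1 of 14 called, AXL, and the mesenchymal list 1 of 14, again AXL, with medians of 0.04 and 0.01. Uncalled there was CCN2, a matrix-associated growth factor, at 11.49 and 11.33 against 10.76, 10.54 and 10.74 (change 0.73, adjusted p = 0.09).

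**Figure D5:**
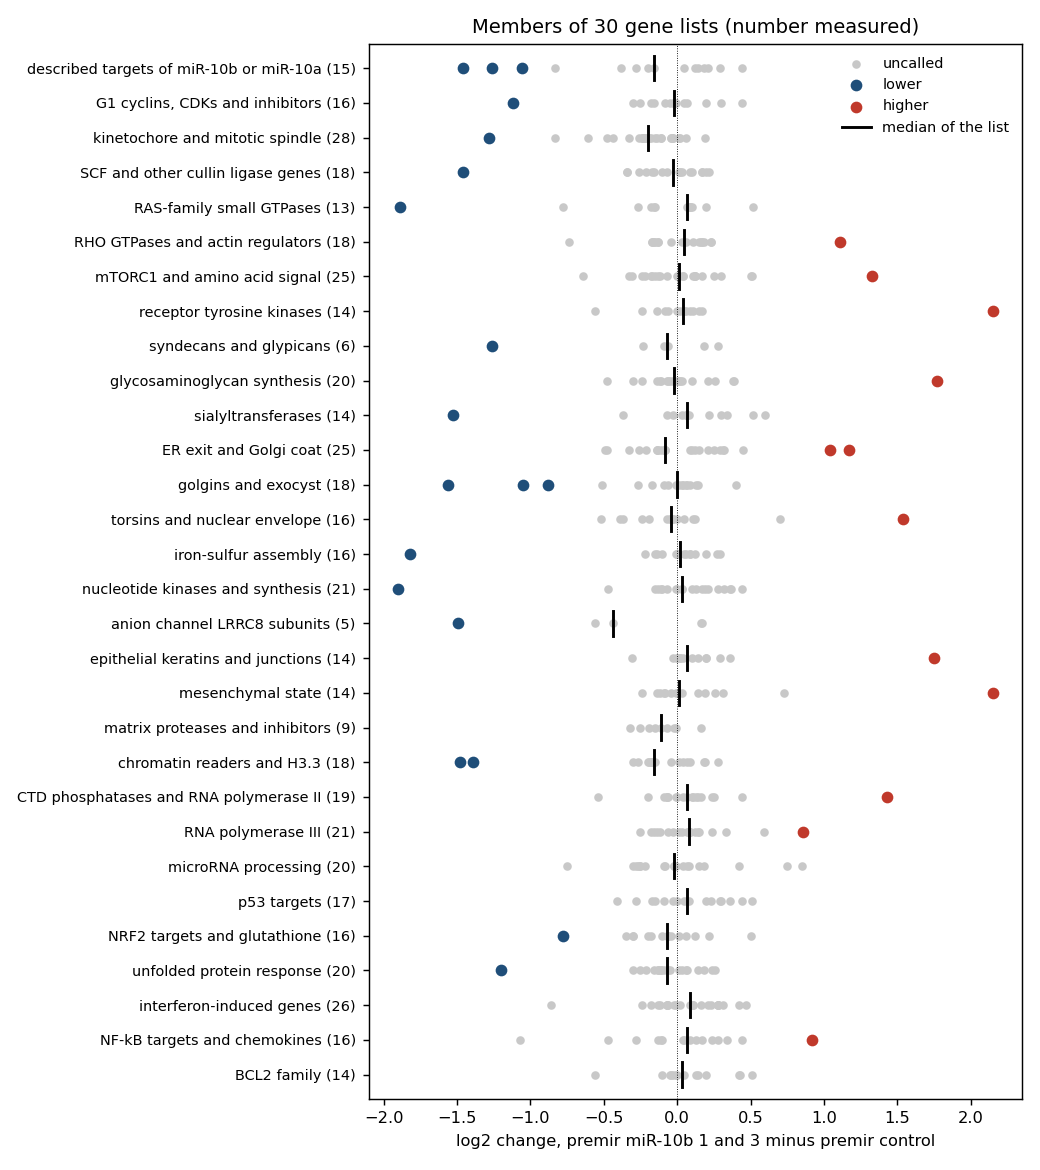
Log2 change of premir miR-10b 1 and 3 from premir control (horizontal axis) for each measured member of the 30 gene lists, 1 list a row with the number measured in parentheses. Points are genes, coloured where called, and the black bar is the median of the list, from -0.44 for the 5 anion channel subunits to 0.09 for interferon-induced genes.

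Other described targets and pathway genes did not pass the test. HOXD10 was detected on 1 array and was not tested. The transcription factor KLF4, a described target of miR-10b, had 6.78 and 6.27 with 6.04 on array 2, against 7.14, 6.88 and 6.39 on premir control (change -0.28, adjusted p = 0.851), and -0.92 at its other probe (adjusted p = 0.373). The RAS regulator NF1 had 5.70 and 5.43 with 5.79 on array 2, against 5.77, 5.36 and 5.42 on premir control. The RAC activator TIAM1 had 5.21 and 5.55 with 5.19 on array 2, against 5.38, 5.66 and 5.56 on premir control, and the apoptosis gene BCL2L11 had 5.38 and 5.75 with 6.20 on array 2, against 5.46, 5.58 and 5.23 on premir control. All 3 of these lay close to the background of the arrays, with changes of 0.05, -0.16 and 0.14. HOXB3, a homeobox gene, had 7.07 and 6.81 with an undetected 4.93 on array 2, against 7.28, 7.46 and 7.24 (change -0.38, adjusted p = 0.517), and 0.11 at its other probe. MAP3K7, a kinase upstream of NF-kB, had 9.06 and 8.37 with 8.92 on array 2, against 9.60, 9.49 and 9.55 (change -0.83, adjusted p = 0.118). EGFR, a receptor of the epidermal growth factor, had 9.61 and 9.26 with 9.19 on array 2, against 9.52, 9.43 and 9.35, a change of 0.00 at its main probe and of 0.04 and -0.01 at its other probes.

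Of the 20 measured microRNA processing genes limma called 0, beside 0.714% of all features, a share at which a count of 0 says nothing about the group. An unadjusted p under 0.05 was found for 4 of the 20 (AGO2, DICER1, TNRC6A and TNRC6B) and for 1379 of all 17369 features. AGO2, the Argonaute protein with slicing activity, had 9.70 and 10.71 with 11.30 on array 2, against 8.98, 9.53 and 9.55 on premir control. The treated arrays lay above the controls but a full log2 unit apart, and the change of 0.85 ± 0.27 (SE) had an adjusted p of 0.295, or 0.0183 without premir miR-10b 1 (1.36). DICER1, which cuts microRNA precursors, had 9.41 and 9.71 with 7.79 on array 2, against 9.07, 9.15 and 9.21 on premir control (change 0.42, adjusted p = 0.311). Against the antimir arm, at 8.80 to 9.08, its difference of 0.68 was called (adjusted p = 0.0194). TNRC6B and TNRC6A, scaffolds of the silencing complex, had changes of -0.75 (adjusted p = 0.0849) and 0.75 (adjusted p = 0.106).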

How the data were processed

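Total RNA from PANC-1 cells was labelled with biotin and read on Illumina bead arrays, 1 sample an array. The authors deposited a signal intensity for 47231 probes on 12 arrays, on a linear scale and not normalized, and beside it a detection p-value, per the file headers. Their scaled signal intensities, also deposited, served as an alternative. Neither software nor genome build is given in the sources used here.

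The analysis used limma 3.58.1 under R 4.3.3, in which neqc estimated backgrounds from these p-values, applied an offset of 16, normalized quantiles over the 12 arrays and took log2. Probes with a detection p under 0.05 on at least 3 arrays were kept (21195), and the probe with the highest mean stood for a gene. This left 17369 features, 11725 with a symbol and 5644 without. Of all probes, 30113 have 1 symbol in the supplied annotation, 8 several and 17110 none. The main model (lmFit, eBayes, two-sided, Benjamini-Hochberg over all features) held 4 group means over 11 arrays, without premir miR-10b 2. Where no treated array detected a gene, the fold to each array's lowest detected signal is printed as a lower bound. The model was tested on simulated data.

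The comparison, its genes and the gene lists were chosen with earlier results of these data known. By rule, values on the 6 compared arrays, and for some genes the range of the antimir arm, are given for the 14 genes with the largest falls, the 10 with the largest rises, the called members of the lists and 16 fixed genes, except HOXD10, which was not tested, and array 2 for SEC24C, given in words. Other named genes are called ones, or uncalled list members. The number of arrays limits the precision. Alternatives concerned normalization, filters, variance models, array weights and left-out arrays. The seed was not matched to transcripts, and slides were not analysed here.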

Additional observations from a re-analysis of the deposited data

How the results depend on the processing

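The 124 calls (84 lower, 40 higher) and the 105 against the antimir arm became 22 (14 lower, 8 higher) and 21 with all 12 arrays, and 42 (30 lower, 12 higher) and 51 with the authors' scaled values. Array weights over 12 arrays gave 1023 (590 lower, 433 higher) and 688, and a minimum fold of 1.2 gave 55 (42 lower, 13 higher) and 44. The compared arrays alone gave 71 (50 lower, 21 higher). Leaving out 1 array gave from 71 to 367 calls, 43 to 258 lower, 24 to 109 higher and 69 to 178 against the antimir arm; the lowest and highest counts of calls came without premir miR-10b 3 and without premir miR-10b 1, so the other treated array then stood alone and was assumed to vary like the other groups. The replicate block gave 101 calls (71 lower, 30 higher) and 73, and 24 of the 106 named genes lost the call under it. Same-numbered arrays deviated from their group means with correlations from -0.39 to 0.42, over 0.1 in 7 of 15 pairs. Between premir miR-10b and premir control they were 0.19 and 0.42, both over 0.1. As not every pair was over 0.1, the main model did not take the numbers as pairs. The deviations of 2 treated arrays from their mean mirror each other, so these correlations cannot settle the pairing. With 12 arrays DKK1 changed by -0.19 and WBP1L by 0.00, the only reversals among 106 named genes and 25 alternatives. Of these genes, 34 kept the call in every alternative with 11 arrays that tested them. In every alternative of any kind that tested them, 15 kept it, among them HTATIP2, CDK6, KRT80, TOR1A, CHPF and AXL. The filter for a detection p under 0.01 in all 11 arrays tested 94 of the 106. BTRC and SUMF1, which are among the 15, were tested in 24 of the 25 alternatives. AGO2 was called with array weights (1.19) and without premir miR-10b 1 (1.36), and DICER1 with array weights (0.50). Chosen after the values were seen, the share of lower features below the whole antimir arm was 96.4%, and 94.7% to 100% in the alternatives other than array weights (20.0%). The share of higher features with premir controls below that arm was 90.0%, and 68.8% to 100% except with array weights (41.8%). Array weights gave premir miR-10b 3 a weight of 2.53, premir miR-10b 1 one of 0.360 and array 2 one of 0.0269. The causes were not tested. Signal near the background limits BTRC, ISCA2, SUMF1, RAB15 and C1QTNF6.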

Other observations

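Of the 105 features called between the treated arrays and the antimir arm, 44 were uncalled against premir control, 3 of which are given here. SMURF1, a ubiquitin ligase of the TGF-beta and BMP pathways, averaged 6.60 on premir miR-10b 1 and 3, 7.17 on premir control and 7.57 in the antimir arm. Its difference from the antimir arm was -0.98 (limma adjusted p = 7.50e-04), and its change from premir control was -0.57 (adjusted p = 0.0729). RPS6KA1, a kinase downstream of ERK, averaged 7.63 on premir miR-10b 1 and 3, 8.31 on premir control and 8.49 in the antimir arm, with a difference of -0.86 from that arm (adjusted p = 0.0148). SKP2, a substrate receptor of an SCF ligase, averaged 9.42 on premir miR-10b 1 and 3, 9.21 on premir control and 8.76 in the antimir arm, a difference of 0.67 from that arm (adjusted p = 0.0382). On premir miR-10b 2, SMURF1 had 5.57 and SKP2 9.77, on the same side of that arm as premir miR-10b 1 and 3. RPS6KA1 had 9.48 there, above every premir control (8.15 to 8.46) and every antimir-arm array (8.29 to 8.71). These 3 genes were chosen after their values were seen.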
